A study of Mus musculus with 2 samples.

Results

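CTCF is a DNA-binding protein with an array of zinc fingers that recognises a long, directional motif and is best known for its role at the anchors of chromatin loops, where it halts the cohesin complex. Many of its sites are bound in most cell types, while others are bound in some cell types only, and methylation of the motif can keep the protein off its site. The stretch of mouse chromosome 5 described here, 110 to 130 Mb on the mm9 build, holds many sites that were called in embryonic stem cells and not in neural precursor cells. Its members are the peaks of both lists whose centre lies past 110 Mb and no farther than 130 Mb. They number 835 of the 51421 peaks in neural precursor cells and 1082 of the 54151 peaks in embryonic stem cells, or 1917 of 105572 in all.

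Both cell types were profiled by chromatin immunoprecipitation and sequencing with the same antibody against CTCF. The neural precursor cells (NPC) were derived from the E14 line and grown on gelatin in medium with N2 supplement, basic FGF and EGF. The embryonic stem cells (ESC) were E14 cells (E14Tg2A, IB10) kept in conditioned medium with fetal calf serum and leukemia inhibitory factor. There was 1 library per cell type and both came from 1 line, so nothing here has a replicate check, the cell types were not tested against each other, and each interval reflects the number of peaks and nothing else. The lists give no read counts, so the depth is unknown, and a site missing from a list may be a site under the calling limit.

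The stretch was selected on its share of ESC peaks without an NPC peak, so that share is a description and supports nothing by itself. An ESC-only or NPC-only peak is one that shares no base with any peak of the other list. In the block 130 of 835 NPC peaks were NPC-only (15.6%, exact 95% interval 13.2 to 18.2), where 21.4% of all NPC peaks were. Of the ESC peaks, 385 of 1082 were ESC-only (35.6%, 32.7 to 38.5), where 26.0% of all ESC peaks were. From 30 to 110 Mb on the same chromosome, 312 of 1335 NPC peaks were NPC-only (23.4%, 21.1 to 25.7) and 347 of 1359 ESC peaks were ESC-only (25.5%, 23.2 to 27.9). The block thus held a smaller share of NPC-only and a larger share of ESC-only peaks than the proximal part, and for neither list did the intervals of the regions overlap.

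Weak peaks are more often unshared, so each peak was also given the unshared share of its own score bin, out of 10 bins of equal size per list, measured outside the block. From the scores alone 21.3% of the NPC peaks of the block would be unshared, above the 15.6% found, and 24.6% of the ESC peaks would be, below the 35.6% found. That is 118.5 ESC-only peaks more than the scores give, or 1.44 times the expected 266.5. This excess rests on the same contrast that the block was selected on and is also a description. In the proximal part the same calculation gave 25.4% for ESC peaks, against the 25.5% found, and 22.0% for NPC peaks, against 23.4%. The median ESC score was alike in both regions, 515 in the block and 528 from 30 to 110 Mb.

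The excess ran through most of the score range. Among ESC peaks in the lowest score bin (up to a score of 136), 71 of 85 in the block were ESC-only (83.5%, 73.9 to 90.7), against 66.6% outside the block. In the fifth bin (372 to 517) the shares were 39.7% (31.4 to 48.4) in the block and 25.04% outside, and in the seventh bin (702 to 916) 15.8% (9.33 to 24.4) and 6.57%. The block lay higher in 9 of the 10 bins, and in 7 of them its interval lay above that of the other ESC peaks. In the 2 highest bins the shares were 0.952% and 1.504%, from 3 ESC-only peaks in all, so nearly every strong ESC site of the block was also an NPC site. NPC peaks went the other way. In their lowest bin 29 of 86 were NPC-only in the block (33.7%, 23.9 to 44.7), against 54.8% outside, and the block lay lower in 8 of 10 bins, with intervals apart in 2.

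**Figure D1:**
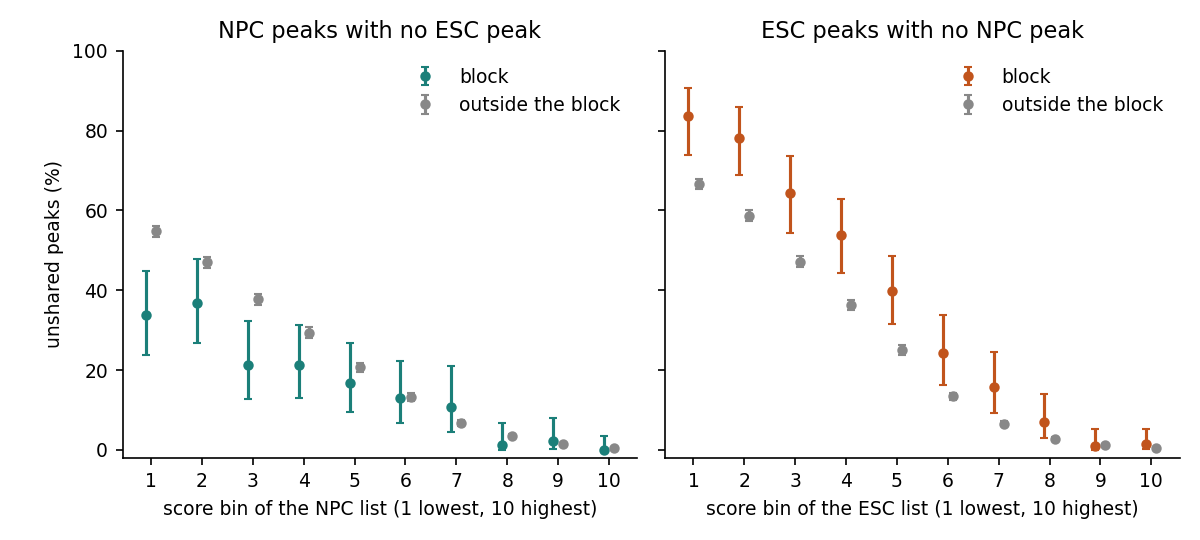
Share of unshared peaks (%, y axis) in each of 10 score bins of equal size (x axis), for NPC peaks on the left and ESC peaks on the right. Coloured points are the block, grey points all peaks outside it, and bars are exact 95% intervals over peaks. ESC peaks of the block are unshared more often from the lowest bin (83.5%) to the eighth (7.07%), whereas NPC peaks of the block lie below the grey points in the lowest bins.

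The block was dense in CTCF sites. It held 41.8 NPC peaks and 54.1 ESC peaks per Mb, against 16.69 and 16.99 per Mb from 30 to 110 Mb. Beyond 130 Mb, to the last peak of the chromosome, there were 43.95 NPC and 52.7 ESC peaks per Mb. Neighbouring centres were a median of 12339 bp apart in NPC and 10116 bp in ESC within the block, against 23545 and 22231 bp in the proximal part. Shared sites, counted as ESC peaks, made up 34.9 per Mb, and ESC-only sites 19.3 per Mb. Across the 38 windows of 500 kb with at least 10 ESC peaks, Spearman's rho between the number of ESC peaks and the share of ESC-only peaks above expectation was -0.05. With the number of NPC peaks it was -0.66. Both are descriptions over windows of 1 pair of libraries, and the NPC count enters the share itself.

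Resolved in steps of 500 kb, the ESC-only excess was largest in a few stretches, over a broader shift. It was above 0 in 30 of the 38 windows with at least 10 ESC peaks (78.9%). Outside the block 49.9% of such windows had an excess above 0, and from 30 to 110 Mb 56.3%. A window was called when the exact interval of its ESC-only share lay above the share expected from its scores. In the block 9 of the 38 windows were called (23.7%), against 56 of 2183 windows outside it (2.57%) and 1 of 64 from 30 to 110 Mb. The block was selected on this same share, so these rates and the ranks of its windows given below are descriptions. Calls and ranks also depend on the number of ESC peaks in a window, and no correction was made for it. The block held 54.1 ESC peaks per Mb, against 16.99 from 30 to 110 Mb, where 64 of 142 windows reached 10 ESC peaks. No window was called below expectation in the block or from 30 to 110 Mb, and 0.962% were outside the block. At so low a share, the lack of such calls among 38 windows does not set the block apart. The called windows cover 4.5 Mb of the block and hold 75.9 of its 118.5 excess peaks, while the remaining 15.5 Mb hold 42.6. The called windows were picked for a high ESC-only share, which enlarges their part of the excess. Over the remaining windows 240 of 817 ESC peaks were ESC-only (29.4%, 26.3 to 32.6), against 24.2% expected. With ESC peaks of the upper 50% by score alone, 3 of 29 windows were called and the excess of the block was 25.1 peaks. In that upper part 50 of 537 ESC peaks of the block were ESC-only (9.31%), against 4.64% expected.

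**Figure D2:**
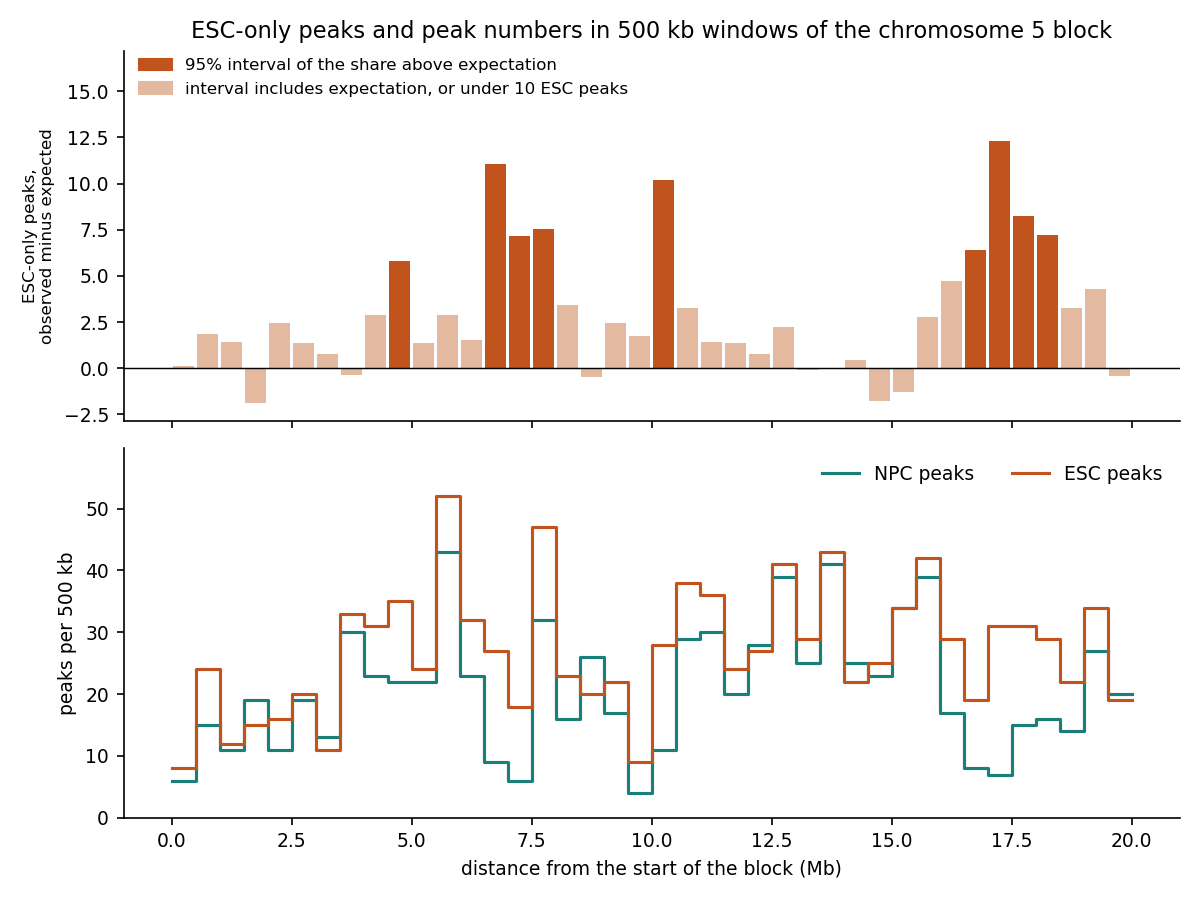
Upper panel, number of ESC-only peaks minus the number expected from their scores in each 500 kb window, plotted by distance from the start of the block (Mb). Dark bars are the 9 windows whose interval lies above expectation. Lower panel, number of NPC and ESC peaks in the same windows. The dark bars gather near 7, 10 and 17.5 Mb into the block, and in 7 of the 9 dark windows the NPC line lies between 6 and 16 peaks, below the ESC line.

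The called windows had fewer NPC peaks and fewer shared sites than the rest of the block, at a similar density of ESC peaks. The 9 windows held 28.0 NPC peaks and 58.9 ESC peaks per Mb, and the other 31 windows held 45.7 and 52.7 per Mb. Shared ESC peaks numbered 26.7 per Mb in the called windows and 37.2 per Mb in the others, whereas ESC-only peaks numbered 32.2 and 15.5 per Mb. NPC-only peaks were scarce there, with 5 of 126 NPC peaks (3.97%, 1.30 to 9.02) against 125 of 709 (17.6%, 14.9 to 20.6) in the other windows. The windows were picked for the ESC-only share, so these contrasts are descriptions.

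The largest group of called windows ran from 126.5 to 128.5 Mb. It held 46 NPC and 110 ESC peaks. Of the NPC peaks 1 was NPC-only (2.17%, 0.0550 to 11.5), where scores alone gave 32.3%, and of the ESC peaks 66 were ESC-only (60.0%, 50.2 to 69.2), where scores gave 29.0%. The window at 127000001 to 127500000 had the largest excess of the block, with 24 of 31 ESC peaks ESC-only (77.4%, 58.9 to 90.4) against 11.7 expected. The excess is a count of peaks and is limited by how many ESC peaks a window holds. Among all 2221 windows with at least 10 ESC peaks, the excess of this window ranked 3. In the upper 50% of ESC peaks by score it was 1.403, from 2 ESC-only peaks of 7, below the 6.73 of the window from 120 Mb and the 4.31 of that from 116.5 Mb. Its 7 NPC peaks were all shared and had scores from 101 to 396, and the ESC peaks at these 7 sites scored from 441 to 1220. The windows on either side, from 126.5 and from 127.5 Mb, had 11 of 19 and 17 of 31 ESC peaks ESC-only, and the excess of the second was 8.23, or 1.32 in the upper 50%. Over the 1 Mb at 127000001 to 128000000 the excess was 20.5 peaks over an expected 20.5.

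A second group lay at 116500001 to 118000000, with 47 NPC peaks, of which 3 were NPC-only, and 92 ESC peaks, of which 48 were ESC-only (52.2%, 41.5 to 62.7; 24.2% expected). The window from 116.5 Mb had 9 NPC and 27 ESC peaks, of which 18 were ESC-only, an excess of 11.04 that ranked 4 among the same windows and was 4.31 in the upper 50%. In the next window, at 117000001 to 117500000, 6 NPC peaks faced 18 ESC peaks, and 12 of those were ESC-only. The window from 117.5 Mb was richer in NPC peaks: it held 32 NPC and 47 ESC peaks, and its 18 ESC-only peaks were 38.3% (24.5 to 53.6) of the ESC peaks. When peaks within 1 kb of each other also counted as shared, its ESC-only peaks numbered 11 and its excess was 1.36 in place of 7.53. Of its ESC-only peaks, 7 thus had an NPC peak within 1 kb. Over the 1 Mb at 117000001 to 118000000 the excess was 14.7 peaks.

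The third place was a single window, from 120 to 120.5 Mb. None of its 11 NPC peaks was NPC-only, and 17 of its 28 ESC peaks were ESC-only (60.7%, 40.6 to 78.5) against 6.82 expected. In the following window, from 120.5 Mb, 14 of 38 ESC peaks were ESC-only and the excess was 3.27, so the excess of 13.4 peaks at 120000001 to 121000000 came mostly from the first 500 kb. The ESC-only peaks of this window were also the strongest of the called windows bar one, with a median score of 391 against 233 over all ESC-only peaks of the block. Only the window from 126.5 Mb, at 399, had a higher median. One further window, from 114.5 Mb, was called with an excess of 5.81.

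Outside the called windows the ESC-only share was above expectation in each stretch, by fewer percentage points than in the called ones, and the expected share lay inside the interval of each. From 110 to 114.5 Mb 27 of 147 NPC peaks were NPC-only (18.4%; 15.3% expected) and 51 of 170 ESC peaks were ESC-only (interval 23.2 to 37.5%; 24.9% expected). From 120.5 to 126.5 Mb, in 12 windows, 64 of 350 NPC peaks were NPC-only (18.3%, 14.4 to 22.7; 21.1% expected) and 107 of 390 ESC peaks were ESC-only (27.4%, 23.1 to 32.2; 23.9% expected). The gap was wider at 118000001 to 120000000, with 16 of 63 NPC peaks NPC-only (25.4%) and 27 of 74 ESC peaks ESC-only (36.5%, 25.6 to 48.5; 26.8% expected), and from 128.5 to 130 Mb, with 7 of 61 NPC peaks (11.5%) and 23 of 75 ESC peaks (30.7%, 20.5 to 42.4; 21.1% expected). At 115000001 to 116500000, 11 of 88 NPC peaks were NPC-only (12.5%) and 32 of 108 ESC peaks ESC-only (29.6%, 21.2 to 39.2; 24.2% expected). The windows with the largest deficits of ESC-only peaks were those from 111.5 Mb (-1.88 peaks), 124.5 Mb (-1.76) and 125.0 Mb (-1.31), each with the expected share inside its interval. The window from 118.5 Mb leaned toward NPC, with 26 NPC peaks of which 12 were NPC-only, and 20 ESC peaks of which 6 were ESC-only. At the limits of the block the windows held few peaks. Just inside 110 Mb, 1 of 6 NPC peaks was NPC-only and 3 of 8 ESC peaks were ESC-only, and just outside 0 of 5 and 3 of 8. The median percentile difference, defined below as NPC minus ESC, was 19.4 points inside and -4.75 outside, over 5 sites each. Just inside 130 Mb, 5 of 20 NPC peaks were NPC-only and 4 of 19 ESC peaks ESC-only, and just outside 3 of 29 and 10 of 36.

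**Figure D3:**
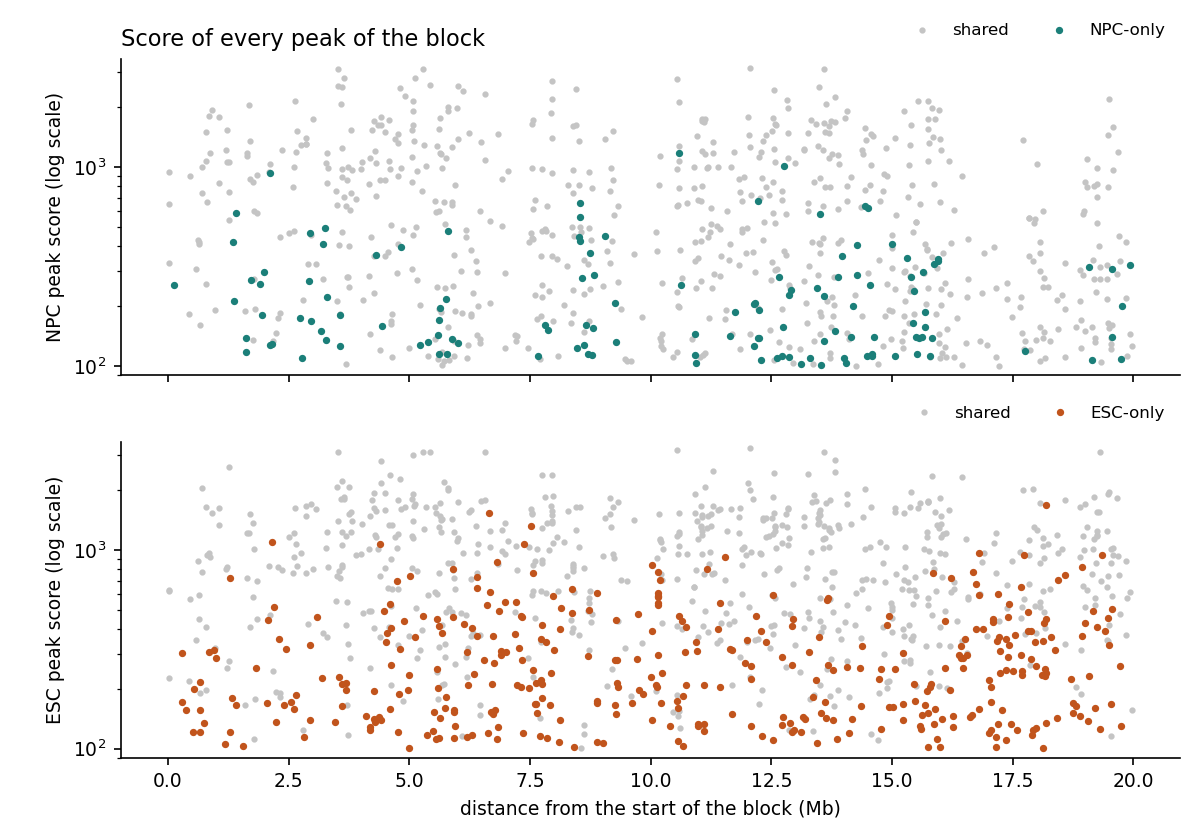
Score of every peak (log scale) against distance from the start of the block (Mb), for the 835 NPC peaks above and the 1082 ESC peaks below. Grey points are shared peaks and coloured points NPC-only or ESC-only peaks. NPC peaks thin out and score low near 17 Mb into the block, and a column of ESC-only peaks with scores mostly over the list median stands just past 10 Mb.

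The ESC-only peaks followed one another in runs. A run is a series of neighbouring ESC peaks, all ESC-only, with no shared ESC peak between them. Runs of at least 5 peaks held 82 of the 385 ESC-only peaks of the block (21.3%), against 11 of 347 (3.17%) from 30 to 110 Mb, 39 of 352 (11.1%) beyond 130 Mb and 6.05% over the whole list. Runs are longer wherever the ESC-only share is higher, so this is not separate evidence.

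The longest runs had 8 peaks. One spanned 126624173 to 126809148, and no NPC peak lay in the 253961 bp around it. Its peaks scored 144, 147, 772, 674, 402, 158, 590 and 962 from left to right, and 4 of them were above the ESC list median. The other spanned 116687237 to 116815832 within 153675 bp free of NPC peaks. Its scores were 153, 211, 150, 370, 269, 157, 866 and 112, so that it consisted mostly of weak peaks around a single strong one at 116811211 to 116811882. The next, of 7 peaks, lay at 127215949 to 127369750 in the window with the largest excess. Its scores ran from 111 to 364 and none passed the list median.

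A compact run stood out among those of 7 peaks and was singled out after its values were seen. It occupied 120142342 to 120162161, 19.8 kb in all, and 6 of its 7 peaks scored above the ESC list median. The scores were 530, 606, 777, 540, 583, 582 and 296. It was closed on both sides by shared sites. The left one scored 378 in NPC and 905 in ESC, at 120141173 to 120141612 in NPC, and ended 730 bp before the first ESC-only peak. The right one, at 120162854 to 120163429 in NPC, scored 811 in NPC and 1517 in ESC and began 693 bp after the last. Both flanking sites were therefore present in both lists, while the 7 sites between them were in the ESC list only.

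ESC-only peaks of the block had higher scores than those of the proximal part. Their median score was 233 (interquartile range 149 to 391), with a 95% interval of the median from 211 to 256, against 195 (179 to 208) from 30 to 110 Mb and 193 over all ESC-only peaks. In the block 50 of them (13.0%) passed the ESC list median, where 9.53% of all ESC-only peaks did. Beyond 130 Mb 14.5% of the ESC-only peaks passed it, with a median score of 224, and on chromosome 12 from 70 to 80 Mb 20.8%, with a median score of 222. The excess of ESC-only peaks in the middle score bins of the block enters its values, so they are not separate evidence. The median distance from an ESC-only peak of the block to the nearest NPC peak was 8483 bp. It was 11876 bp from 30 to 110 Mb and 10482 bp over the whole list. In the block 43 of the 385 had an NPC peak within 1 kb (11.2%), against 7.49% from 30 to 110 Mb and 7.85% over the whole list. A further 37 had none within 50 kb (9.61%), against 10.1% and 12.4%. NPC peaks were denser in the block, with a median spacing of 12339 bp against 23545 bp from 30 to 110 Mb. The distances were not adjusted for this spacing. ESC-only peaks of the block were narrower than its shared ESC peaks, with a median width of 483 bp against 640 bp. The same held from 30 to 110 Mb (468 against 622 bp) and over the whole list (457 against 619 bp).

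The strongest ESC-only peak of the block lay at 128195572 to 128196255, with a score of 1671 and the nearest NPC peak 23813 bp away. It was followed by peaks at 116642575 to 116643271 (score 1526) and at 117519452 to 117520147 (score 1315). The peak at 117519452 had an NPC peak 922 bp away. The other 7 of the first 10 scored between 917 and 1092. They included the peak at 117383042 to 117383621 (score 1073), the most isolated of the 10, with the nearest NPC peak 84576 bp away, and those at 126808497 to 126809148 and 127733514 to 127734097 inside the largest group of called windows. In all, 6 of the 10 lay in called windows, which held 145 of the 385 ESC-only peaks of the block. Those windows were picked for a high ESC-only share, so the count is a description.

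The 5 strongest NPC-only peaks of the block scored from 664 to 1181. The first was at 120595890 to 120596466 with a score of 1181, and the second at 122753282 to 122753855 with 1010. The others of the first 5 were at 112104803 to 112105392 (score 934), 122232432 to 122232846 (679) and 118526985 to 118527455 (664). None lay in a called window, but those windows held only 5 of the 130 NPC-only peaks of the block, so this says little. The first and the fourth had an ESC peak 738 and 942 bp away, and the others were farther from one.

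Sites that both cell types kept were also ranked lower in NPC where ESC-only peaks gathered. Scores of the 2 lists have no known common scale, so each score was turned into a percentile of its own list and the ESC percentile was subtracted from the NPC percentile at the 689 sites of the block that matched 1 to 1. The median difference was -5.19 points (-8.10 to -3.84), against -2.78 (-4.30 to -1.25) at 998 sites from 30 to 110 Mb and -1.18 over all 39595 sites. In the block 435 sites (63.1%, 59.4 to 66.7) had a lower percentile in NPC, where 52.9% of all sites did. Falls of over 25 points were seen at 183 sites (26.6%; 16.4% of all sites) and rises of over 25 points at 60 (8.71%; 11.9% of all sites).

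The median fall was larger over the called windows than over the other windows, but single windows departed from this on both sides. The called window from 114.5 Mb had a median difference of -4.46 points, and the window from 126 Mb, not called, had -32.4. In the 9 called windows the median difference was -20.1 points (-28.3 to -13.1) over 119 sites, with 95 of them lower in NPC, against -3.68 (-4.74 to -1.51) over 570 sites of the other windows. The median NPC percentile was 47.4 in the called windows and 59.4 in the others, and the median ESC percentile was 71.8 and 65.2. From 126.5 to 128.5 Mb the median difference was -30.7 points (-41.3 to -21.9) and 39 of 43 sites were lower in NPC. A fall was also seen past the called windows on the distal side: from 128.5 to 130 Mb, where 23 of 75 ESC peaks were ESC-only, it was -22.7 points (-32.9 to -9.99). In the first 4.5 Mb of the block it was 3.62 points in the other direction, with an interval that included 0 (-0.69 to 8.71). Across the 38 windows with at least 10 ESC peaks, which all held at least 5 such sites, Spearman's rho between the ESC-only share above expectation and the median difference was -0.61. It comes from the same 2 lists, in which a site that weakens in NPC can pass from shared to ESC-only, so the quantities are not independent.

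**Figure D4:**
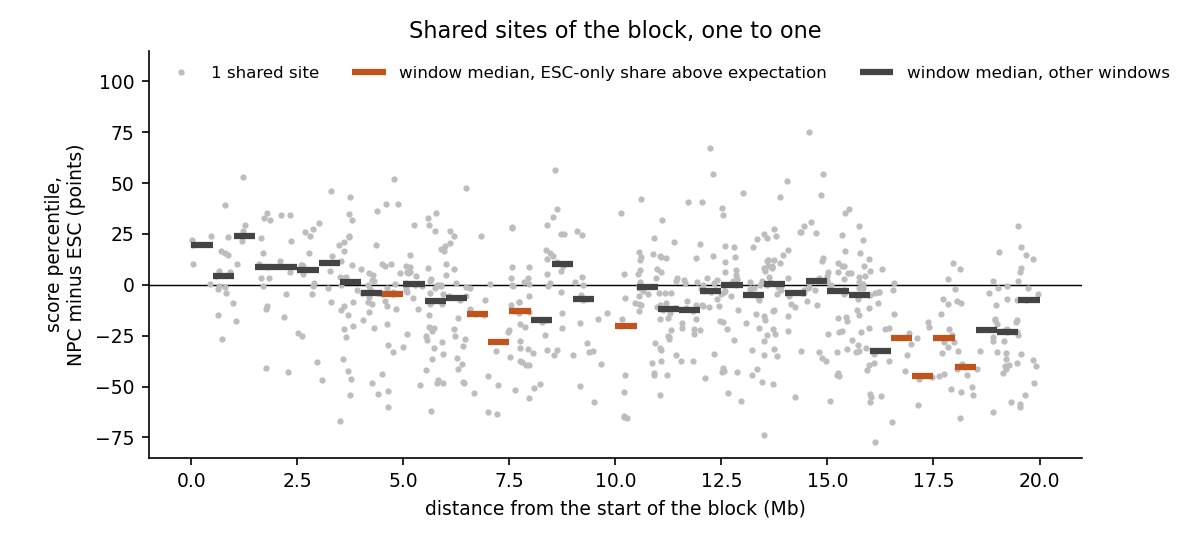
Percentile of the NPC score minus percentile of the ESC score (points) at each of the 689 shared sites of the block that matched 1 to 1, against distance from the start of the block (Mb). Grey points are sites, and thick lines are medians of 500 kb windows with at least 5 sites, coloured where the ESC-only share was above expectation. The medians lie above 0 in the first windows and reach -44.9 points in the window that ends 17.5 Mb into the block.

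The largest fall was at 126114848 to 126115569 in ESC, where the score was 111 in NPC and 1220 in ESC, a difference of -77.2 points. Next came the sites at 123501568 to 123502351 (146 in NPC, 1497 in ESC), 126525985 to 126526660 (130 and 1127), 113507523 to 113508413 (212 and 2063) and 120265170 to 120265763 (122 and 1010). The sites at 126525985 and 120265170 lie in called windows. The largest rise was at 124563008 to 124563495 in ESC, with scores of 1026 in NPC and 119 in ESC, a difference of 75.3 points. The next rises were at 122233788 to 122234141 (1129 in NPC, 168 in ESC) and 118563646 to 118563948 (472 and 100.4).

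The block was not alone in these features. Beyond it, from 130 Mb to the last peak of chromosome 5, 14.9% (12.8 to 17.3) of 990 NPC peaks were NPC-only and 29.7% (27.1 to 32.4) of 1186 ESC peaks were ESC-only, 1.23 times the ESC-only number expected from scores. The median percentile difference there was -8.51 points (-10.5 to -5.58), with an interval that overlapped that of the block. On chromosome 12 from 70 to 80 Mb the ESC-only share was 46.3% (40.1 to 52.6) of 259 ESC peaks, 1.83 times the expected number, with a percentile difference of -24.3 points (-29.4 to -16.3). The called stretch from 126.5 to 128.5 Mb, with 60.0% ESC-only and -30.7 points, had intervals that overlapped those of the chromosome 12 segment. Gene positions and sequence on mm9 were not used here, so the peaks are named by position and were not assigned to genes or motifs.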

How the data were processed

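The authors deposited 1 peak list per library, with a score for each peak whose definition is not stated; each library had its own MACS call, per the file headers, whose track names end in CONTROL without explanation, so that taking the lists as CTCF peaks rests on the labels, and mm9 is the build in the submitters' processing notes. What the sources used here leave out is the aligner, the control, the threshold and the version of MACS. Deposited scores were compared between lists only as percentiles. Overlaps of at least 1 bp were computed with bedtools 2.31.1, and the rest with Python 3.11.15, numpy 2.4.6, pandas 2.3.3, scipy 1.17.1 and matplotlib 3.10.9. Expected shares used 10 score bins filled from peaks outside the block. Windows were 500 kb by peak centre. Shares carry exact Clopper-Pearson 95% intervals and medians order-statistic intervals. Both treat peaks as independent. The overlap and expectation steps were checked on simulated data. Named peaks and windows follow a written rule: the 5 largest excesses and 3 largest deficits, 10 ESC-only and 5 NPC-only peaks by score, 3 longest runs, 5 falls and 3 rises, the windows that the choice of the block names and those at both limits. The block, the rule and the alternatives were chosen with earlier results of these data known. No peak number was absent inside the block.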

Additional observations from a re-analysis of the deposited data

How the results depend on the processing

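Leaving out a library was not possible. No paired analysis was possible because each group has 1 sample. The NPC-only and ESC-only shares of the block were 24.7% and 41.9% with 50% reciprocal overlap (28.1% and 31.5% outside the block), 21.6% and 39.5% with centres within 100 bp (26.7% and 30.1%), and 5.01% and 9.31% in the upper 50% by score (5.01% and 4.87%), so among strong peaks the NPC-only share no longer lay below that outside the block. With peaks within 1 kb the ESC-only share was 31.6% (23.8% outside). In the upper 50% the excess was 25.1 peaks and 3 of 29 windows were called; other settings gave 7 to 12 called windows and 95.9 to 122.9 excess peaks. The percentile difference was -3.63 points with reciprocal overlap (0.17 outside the block) and -8.57 in the upper 50% of ESC sites (-4.93 outside). Of 56 values for the 8 named windows 3 left the interval of the main value, all in the upper 50%: the excess was 4.31 in place of 11.04 from 116.5 Mb, 1.403 in place of 12.28 at 127000001 and 1.32 in place of 8.23 from 127.5 Mb. One changed sign: that from 125.0 Mb became 0.58 with reciprocal overlap. The expected shares, and all values with lists of equal length, stayed within their intervals or within 1.5 times. The longest run had 8 peaks also under the centre rule and the 1 kb rule, the only other settings tried for it. The cause of these shifts was not tested.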
